A study of Rattus norvegicus with 10 samples.

Results

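The miRNAs of the imprinted Dlk1-Dio3 region were measured in the left ventricle of rats given saline or dexmedetomidine (DEX), a sedative drug and agonist of alpha2 adrenergic receptors. In mammals these miRNAs are transcribed from the maternally inherited chromosome, in long noncoding RNAs that include Meg3, Rian, Mirg and the RNA antisense to Rtl1. Each hairpin in such an RNA can give a mature miRNA from its 5p arm and its 3p arm, and the bases 2 to 8 of a mature miRNA, the seed, pair with target messenger RNAs. The group is known for high levels in embryo, placenta and brain, and Mef2, a transcription factor of muscle and neurons, activates the transcript that runs from miR-379 to miR-410.

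Members were chosen by name alone, as the chip probes whose miRNA number belongs to this region. The rule used no measured value, although it was set with earlier results of these data known. They were 88 of the 761 rat miRNA probes on the chip, and 41 hairpins had a probe for each arm. RefSeq (build GRCr8) held a mature sequence for 86 members, all on chromosome 6 from 134298094 to 134579828 and between the genes Dlk1 and Dio3. Of these, 83 lay on the plus strand, and miR-299b-5p, miR-299b-3p and miR-409b lay on the minus strand. By their place in the region, 20 arms belonged to the Meg3 and antisense Rtl1 side (miR-770 to miR-136), 3 to miR-341 and miR-370, and 65 to the Mirg side (miR-379 to miR-410).

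The Control group was infused with saline and the DEX group with dexmedetomidine for 30 min, with 5 rats and 5 arrays per group. Every animal was a male Wistar rat of 250 to 350 g, and no genetic alteration was named. The tissue was anterior left ventricular wall taken after a washout of 5 min without ischemia, so each array reports on the mixture of cells in that wall. In such bulk tissue, fewer cells of a type and less RNA per cell cannot be told apart. The comparison asks whether miRNAs of the region differ after the infusion that precedes ischemia in the study's injury model.

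The chip identifiers placed Control 1 to Control 4 on slide 1, Control 5 and DEX 1 to DEX 3 on slide 2, and DEX 4 and DEX 5 on slide 3, so group and slide were largely entangled. A miRNA was detected on an array where the deposited table held a value, which corresponds to blank spots plus 2 SD, and 405 of the 761 miRNAs were detected on all 10 arrays. This limit was loose, since 18.8% to 31.3% of the 32 negative control spots of an array also passed it. The 8 spots of Negative Control 3 lay above the others, with medians of 5.44 to 10.03 on the normalized scale, whereas the medians of the remaining negative controls did not exceed 1.82. Spots without a probe had a median of 17.6 on DEX 4 and 16.7 on DEX 5 and of at most 5.29 on the other arrays. All 6 heart muscle miRNAs listed as markers were detected on every array. Of 3 neuronal markers, miR-124-3p was detected on 1 array and the other two on 10, and the summed signal was 29.3 to 47.6 in Control and 27.8 to 52.9 in DEX. No marker of heart muscle, fibroblast, smooth muscle, endothelium, red cell, leukocyte or neuron passed the adjusted threshold. The median log2 difference was -0.59 for the 3 red cell miRNAs, of which 1 was higher in DEX (summed signal 564 to 1028 in Control and 349 to 1004 in DEX). It was 0.25 for leukocyte, 0.17 for fibroblast, 0.14 for heart muscle, 0.10 for smooth muscle, and 0.07 for endothelium and for the 2 tested neuronal markers. Over all tested miRNAs it was 0.04. The part of these cells in the values of the cluster was not tested.

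The sequences of the members that carry the results are shown first, with the seed in capitals. The first set had the brightest probes of the cluster.
miR-487b-3p: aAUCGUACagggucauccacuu
miR-494-3p: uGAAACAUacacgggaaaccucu
miR-370-3p: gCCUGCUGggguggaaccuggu
miR-667-3p: uGACACCUgccacccagcccaa
miR-134-3p: cUGUGGGCcaccuagucaccaa
miR-770-5p: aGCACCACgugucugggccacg
miR-540-3p: aGGUCAGAggucgauccugggc
miR-666-5p: aGCGGGCAcggcugugagag

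The second set had the smallest unadjusted p in the group comparison, with higher or lower values in DEX.
miR-299a-3p: uAUGUGGGacgguaaaccgcu
miR-337-3p: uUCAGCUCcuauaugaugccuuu
miR-540-5p: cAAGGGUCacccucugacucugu
miR-134-5p: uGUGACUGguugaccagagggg
miR-494-5p: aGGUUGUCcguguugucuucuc
miR-770-3p: gUGGGCCUgacguggag

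The last set shows arms that were not detected on any array, including arms with known roles in heart muscle, beside a detected arm of the same hairpin (miR-377) or of the same seed as miR-494-5p (miR-496-5p, miR-410-5p).
miR-377-5p: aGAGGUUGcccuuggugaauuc
miR-377-3p: uGAAUCACacaaaggcaacuuuu
miR-495: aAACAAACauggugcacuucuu
miR-410-3p: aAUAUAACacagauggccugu
miR-410-5p: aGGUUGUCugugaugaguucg
miR-496-5p: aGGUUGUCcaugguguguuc
miR-379-5p: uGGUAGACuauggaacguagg
miR-376c-3p: aACAUAGAggaaauuucacgu

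Detection of the cluster was partial and did not separate the groups. Of the 88 members, 33 were detected on all 10 arrays, 35 on 1 to 9 arrays and 20 on none. The share on all arrays was 37.5%, beside 55.3% of the other miRNAs on the chip, and the share on none was 22.7%, beside 15.8%. In array order, the Control group had 43, 42, 48, 39 and 49 members detected, with a mean of 44.2 ± 4.21 (SD, n = 5). The DEX group had 47, 46, 40, 43 and 50 members detected, with a mean of 45.2 ± 3.83 (SD, n = 5). These ranges overlapped almost wholly, and the difference of 1.0 was smaller than the spread within either group. The brightest negative control spot of each array lay at 7.46 to 16.2. Above it, the mean number of members was 28.6 ± 4.83 per Control array and 24.8 ± 3.11 per DEX array (SD, n = 5 in either group). Over all miRNAs the number above it was also lower in DEX, at 302 to 402 per Control array and 291 to 368 per DEX array. On all arrays 17 members (19.3%) passed, beside 38.2% of the other miRNAs. Among these 17, miR-341 read 16.5 on DEX 4, below the median of 17.6 of the spots without a probe there.

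Detection per member differed little between the groups. A total of 59 members were detected on equally many arrays of each group, 16 on more DEX arrays and 13 on more Control arrays. The 10 members detected in DEX alone were seen on at most 2 arrays, as were the 5 detected in Control alone. The widest gaps belonged to miR-337-3p, with 1 Control array and 5 DEX arrays, and to miR-299a-3p, with 2 Control arrays and 5 DEX arrays. The DEX 3 value of miR-337-3p, 3.78, equals the floor of that array, so this detection is marginal.

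**Figure D1:**
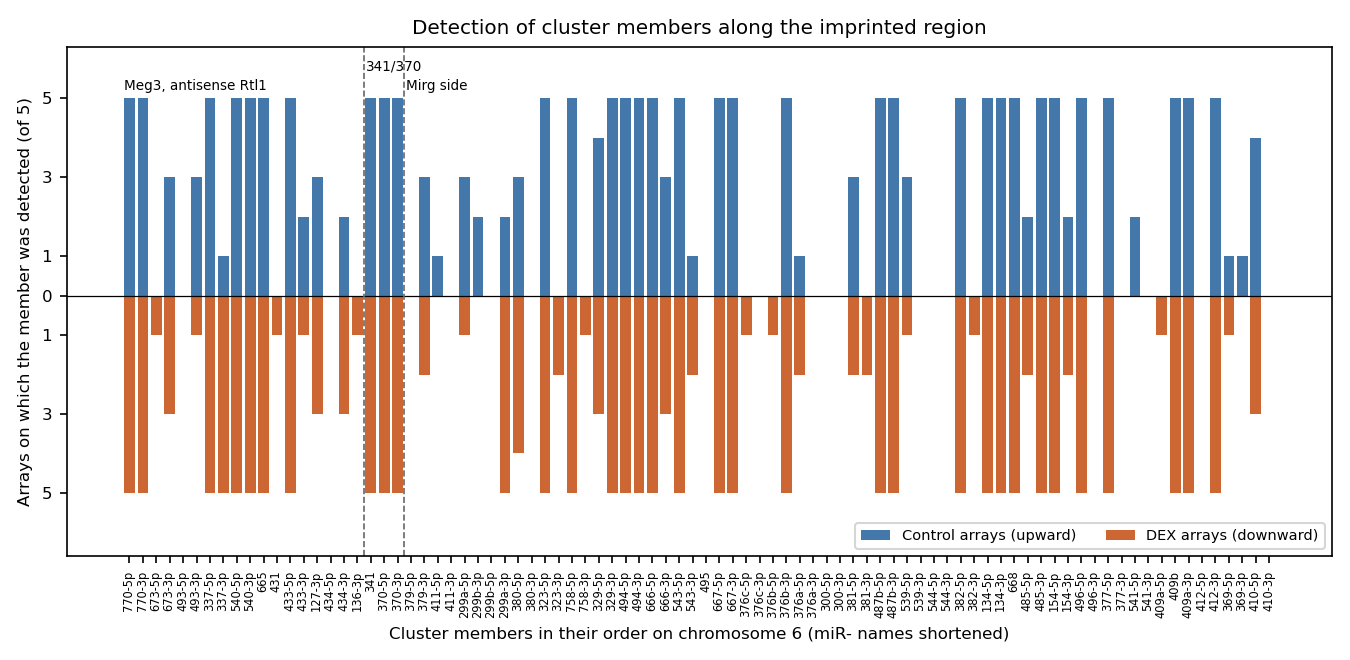
Number of Control arrays (blue, upward, of 5) and DEX arrays (orange, downward, of 5) on which each of the 86 members with a known position was detected, in chromosomal order and divided at the dashed lines into the Meg3 and antisense Rtl1 side, miR-341 with miR-370, and the Mirg side. Full bars upward and downward mark the 33 members detected on all 10 arrays, and gaps mark members detected on none.

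Detection was also counted for each of the 3 stretches. On the Meg3 and antisense Rtl1 side, 7 of 20 arms (35.0%) were detected on all arrays and 3 on none. All 3 arms of miR-341 and miR-370 were detected on all arrays. On the Mirg side, 23 of 65 arms (35.4%) were detected on all arrays and 17 (26.2%) on none.

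Among the 20 members with no detection were several that are well known in heart and brain. miR-410-3p and miR-495 promote the proliferation of heart muscle cells, and neither was detected on any array. miR-379-5p, which gives its name to the miR-379 to miR-410 group, was not detected, nor were miR-376a-3p and miR-376c-3p of the miR-376 family, which is edited from adenosine to inosine in brain. The others were miR-127-5p, miR-299b-5p, miR-377-3p, miR-380-3p, miR-411-3p, miR-412-5p, miR-434-5p, miR-493-5p, miR-496-3p, miR-539-3p, miR-541-3p and both arms of miR-300 and miR-544. A spot below the limit says that the miRNA was not detectable with this probe, not that it was absent.

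Detection followed base composition. The median content of G and C bases was 56.5% in members detected on all arrays, 45.6% in those detected on 1 to 9 and 38.1% in those detected on none. With under 40% G and C, 1 of 17 members (5.88%) was detected on all arrays, beside 34.8% of the 115 other miRNAs in that class. From 40% to under 50%, the shares were 4 of 27 members (14.8%) and 47.1% of the others. From 50% to under 60%, they were 18 of 30 (60%) and 64.1%, and at 60% and over they were 10 of 12 (83.3%) and 84.8%. At this limit the members lay below the other miRNAs in the classes poor in G and C and close to them in the classes rich in G and C, while the median content was 47.8% in both sets. Above the brightest negative control spot on all arrays, the shares of members and of others were 0% and 28.7% under 40% G and C, 11.1% and 30.3% from 40% to under 50%, 13.3% and 40.2% from 50% to under 60%, and 83.3% and 64.1% at 60% and over. Capture probes rich in G and C bind their targets more strongly, and their part in these shares was not tested.

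**Figure D2:**
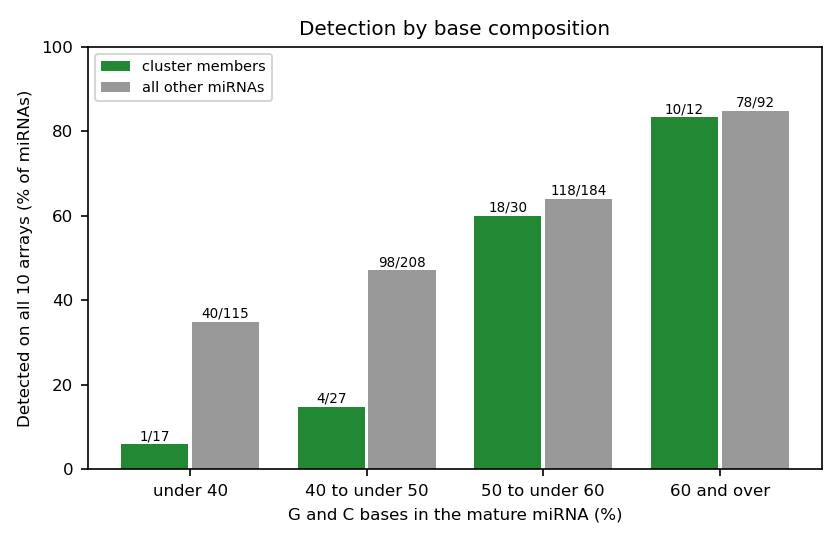
Share of cluster members (green) and of all other miRNAs (grey) detected on all 10 arrays, in % of the miRNAs in each class of G and C content of the mature sequence, with the numbers detected and in the class above each bar. The members' share was 5.88% in the lowest class and 83.3% in the highest, and the other miRNAs' share was 34.8% and 84.8%.

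The arms of a hairpin were often detected unequally. Among the 41 hairpins with both arms on the chip, the arms differed by 5 or more arrays in 17, with more detection of the 5p arm in 10 and of the 3p arm in 7. In 12 of these 17 the more often detected arm held more G and C, and in 1 the arms were equal. miR-377-5p was detected on 10 arrays and miR-377-3p on 0. miR-323-5p was detected on 10 arrays and miR-323-3p on 2. miR-433-5p was detected on 10 arrays and miR-433-3p, an arm studied in cardiac fibrosis, on 3, although miR-433-3p has the higher G and C content (54.5%, beside 45.5%). Both arms were detected on all arrays for 7 hairpins, namely miR-134, miR-370, miR-487b, miR-494, miR-540, miR-667 and miR-770. Probes differ in how well they bind, so unequal detection of arms gives no ratio of their abundance.

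Among the members with a sequence, 80 seeds were found, and 70 members were alone on the chip with their seed. The seed GGUUGUC was shared by miR-494-5p and miR-496-5p, both detected on 10 arrays, and miR-410-5p, detected on 7. The seed AUGUGGG was shared by miR-299a-3p and miR-299b-3p, and the 17 bases of miR-299b-3p are contained in miR-299a-3p. miR-299b-3p was nevertheless detected on 2 Control arrays and on no DEX array, whereas miR-299a-3p was detected on 2 Control and 5 DEX arrays. Cross-hybridization between these probes was not tested. Another 3 seeds were shared by members (AUACAAG by miR-381-3p and miR-539-3p, GGUUUAC by miR-299a-5p and miR-299b-5p, UGGAUAU by miR-376b-5p and miR-376c-5p), and none of these 6 arms was detected on more than 4 arrays. A further 5 members shared a seed with a miRNA outside the list of members, such as miR-329-3p with miR-362-3p.

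Several hairpins of the region are read from the opposite strand. The members miR-409a-3p, on the plus strand, and miR-409b, on the minus strand, overlap over 20 bases and are shown here for that reason.
miR-409a-3p: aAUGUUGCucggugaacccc
miR-409b: aGGGGUUCaccgagcaacauucg
miR-539-5p: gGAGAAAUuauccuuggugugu
miR-3576: aCACACCAaggauaauuucucc
miR-409a-3p and miR-409b were each detected on all 10 arrays. miR-3576, which is outside the list of members, is the exact complement of miR-539-5p, so that the G and C content of the sequences is the same (40.9%), and it was detected on 9 arrays while miR-539-5p was detected on 4. miR-3592 and miR-382-3p are likewise exact complements (38.1% G and C) and were detected on 9 and 1 arrays. The third exact pair, miR-3578 and miR-369-5p, was detected on 0 and 2 arrays.

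For the group comparison, 44 members detected on at least 5 arrays were tested among 503 miRNAs. No member reached an adjusted p under 0.05 (limma, Benjamini-Hochberg over all 503 miRNAs, 0.0% of all tested miRNAs called), and the smallest adjusted p of a member was 0.692. The methods' t-test after Benjamini-Hochberg adjustment gave 0 members as well. At an unadjusted p under 0.05 in limma there were 2 of 44 members (4.55%), beside 15 of 503 (2.98%) over all miRNAs. Both, miR-299a-3p and miR-337-3p, were higher in DEX (1.39% of all miRNAs were called in this direction). They passed the filter on detection through DEX, with detection on all 5 DEX arrays but only on 2 and 1 Control arrays. Most of their Control values are floors, and their p and SE rest partly on these. The value of miR-337-3p on DEX 3 also equals the floor of its array. The methods' t-test with a 1.5-fold limit, run here on the log2 values with undetected signals at the floor and not on the study's own values, named 1 member, miR-299a-3p, with 3 of 5 Control arrays at the floor, beside 1.59% of all miRNAs. A difference of at least 1.5-fold at any p was seen in 1 member, again miR-299a-3p, beside 3.58% of all miRNAs. The values of the groups overlapped in every tested member, and they failed to overlap in 0.596% of all miRNAs.

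The differences were small and lay on either side of 0. The median log2 difference (DEX minus Control) was 0.02 over the 44 members and 0.04 over all 503 miRNAs, with 24 members above 0 (54.5%, beside 59.2% of all). The range ran from -0.48 for miR-134-5p to 0.94 for miR-299a-3p. Of the 33 members detected on all arrays, 22 had a 95% interval wholly within 1.5-fold in either direction. Among the 17 members above every negative control spot, 16 had such an interval, and their log2 differences ran from -0.21 to 0.13. By stretch, the median was 0.10 for 11 tested arms of the Meg3 and antisense Rtl1 side, -0.05 for miR-341 and miR-370, and 0.02 for 30 tested arms of the Mirg side.

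Slide 2 was the only slide with both groups. Within it, 3 DEX arrays against 1 Control array, the median log2 difference was -0.16 over the members and -0.19 over all tested miRNAs, and 14 of 44 members lay above 0, beside 24.9% of all. Only 20 of 44 members had the same sign within slide 2 as over all arrays.

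**Figure D3:**
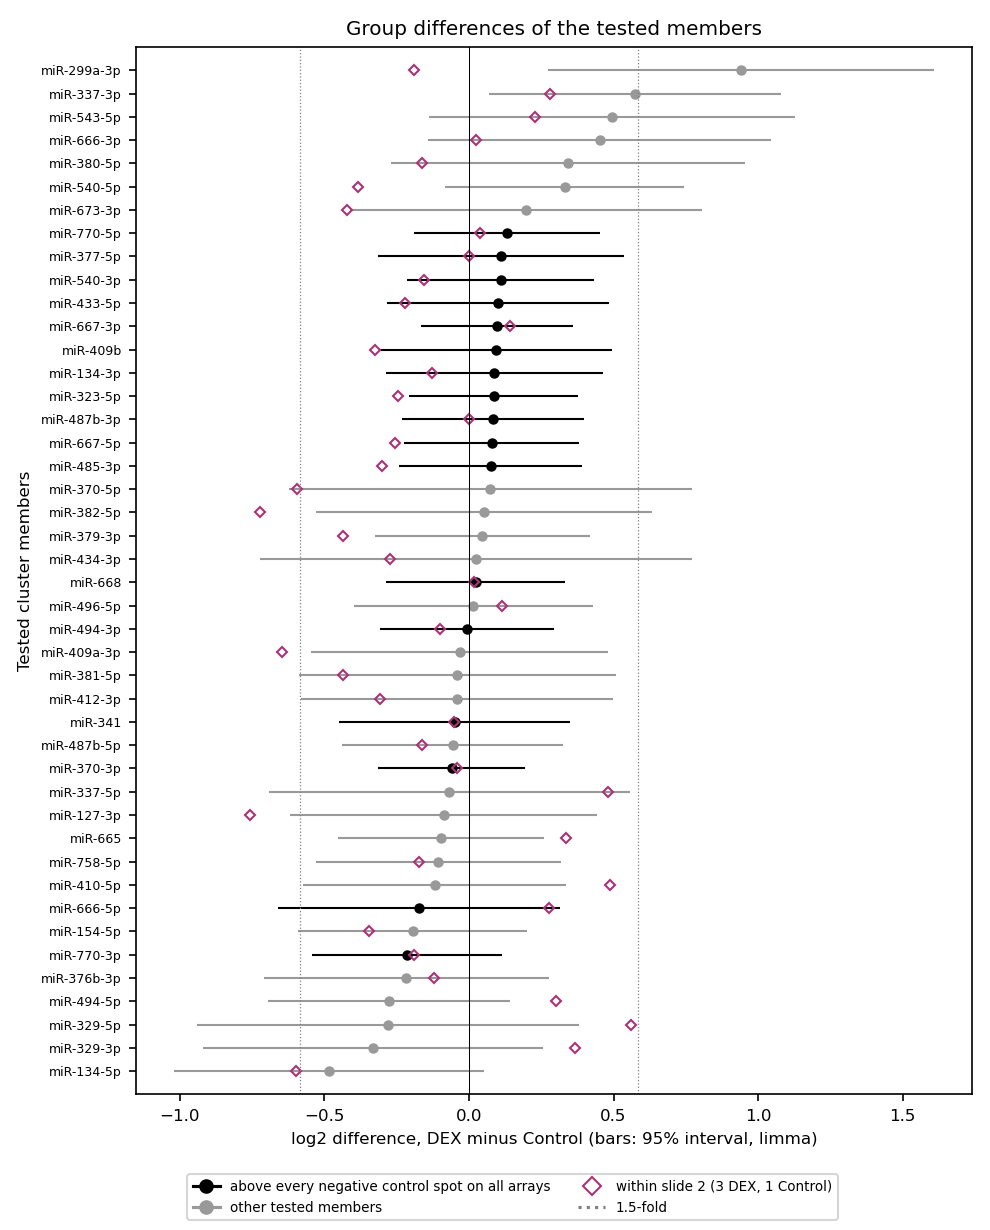
Log2 difference of normalized signal, DEX minus Control, for the 44 tested members (circles, bars are 95% intervals from limma over 10 arrays), with the difference within slide 2 (open diamonds) and dotted lines at 1.5-fold. Black marks the 17 members above every negative control spot on all arrays, whose circles lie between -0.21 and 0.13, and only miR-299a-3p and miR-337-3p have intervals that leave out 0.

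The brightest member probes showed nearly the same signal in both groups. Brightness ranks probes here and not the abundance of different miRNAs. miR-487b-3p, which with miR-329, miR-494 and miR-495 restrains vessel growth after ischemia, read 597, 686, 531, 667.97 and 599 on the 5 Control arrays and 656, 508, 641, 734 and 739 on the 5 DEX arrays, in order of their numbers. The highest values were those of DEX 4 and DEX 5 on slide 3, the lowest was that of DEX 2, and the groups overlapped. The Control mean was 616 ± 62.3 and the DEX mean 656 ± 93.5 (SD, n = 5 arrays per group), a log2 difference of 0.08 with a 95% interval from -0.23 to 0.40.

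miR-494-3p, which has been studied in the ischemic heart, read 297, 276, 280, 343 and 319 in Control and 250, 313, 338, 271 and 339 in DEX. The group means were equal to 3 digits, at 303 ± 28.2 and 303 ± 40.2 (SD, n = 5 each). The log2 difference was -0.01 with an interval from -0.31 to 0.29.

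miR-370-3p, known in liver as a regulator of fatty acid oxidation through Cpt1a, was the steadiest of the bright members. It read 141, 124, 128, 128 and 132 in Control and 128, 129, 128, 111 and 130 in DEX. DEX 4 was low and the other 4 DEX arrays lay within the range of Control. The log2 difference was -0.06, with an interval from -0.32 to 0.19.

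miR-134-3p read 78.9, 74.7, 73.0, 97.7 and 104 in Control and 76.8, 104, 107, 101.1 and 68.4 in DEX. High and low values occurred in both groups. The other arm, miR-134-5p, which acts on Limk1 in the dendritic spines of neurons, read 20.3, 18.5, 11.9, 16.4 and 18.2 in Control and 18.2, 10.8, 8.77, 8.25 and 17.6 in DEX. DEX 2, DEX 3 and DEX 4 lay below all Control arrays, while DEX 1 and DEX 5 lay within their range. The log2 difference was 0.09 for the 3p arm and -0.48 for the 5p arm, the lowest among the members (limma, unadjusted p = 0.0737, adjusted p = 0.906). Across the arrays, with group means removed, the arms correlated at -0.55 (10 arrays that share scaling and slides).

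The remaining bright members overlapped between the groups in the same way. miR-667-3p ranged from 94.5 to 112 in Control and from 96.7 to 115 in DEX, with a log2 difference of 0.10. miR-770-5p, hosted at the Meg3 end of the region, ranged from 67.2 to 88.0 and from 69.3 to 96.9, with 0.13. miR-540-3p ranged from 43.3 to 64.7 and from 51.6 to 66.2, with 0.11. miR-666-5p ranged from 35.5 to 64.0 and from 25.006 to 55.8, with -0.17, and DEX 4 was its lowest array.

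**Figure D4:**
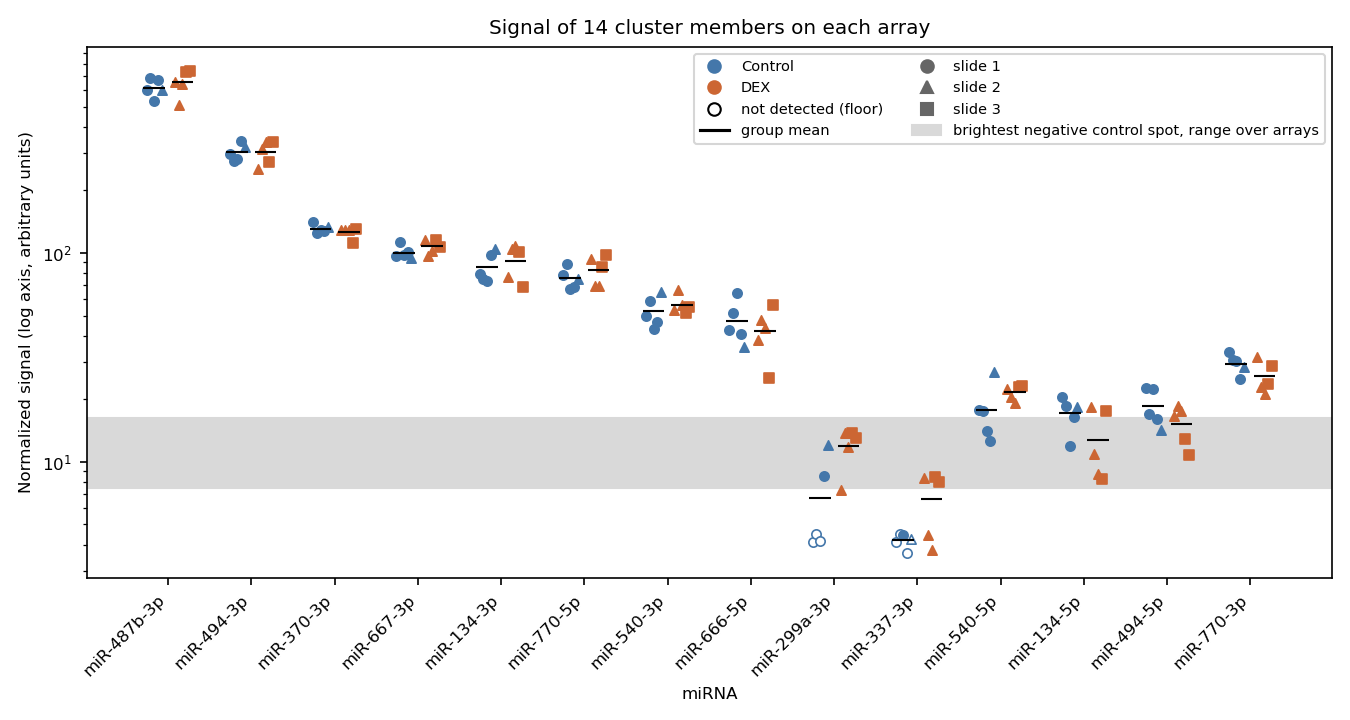
Normalized signal (log axis, arbitrary units) of the 14 named members on each array, for Control (blue) and DEX (orange), with the marker giving the slide, open markers for arrays at the floor where the miRNA was not detected, black lines for group means, and a grey band for the brightest negative control spot (7.46 to 16.2 over the arrays). The values of the groups overlap in all 14 members, and miR-299a-3p and miR-337-3p lie within or below the grey band on all arrays.

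The smallest unadjusted p among the members belonged to miR-299a-3p, on the Mirg side. It was below the limit on Control 1, Control 2 and Control 3, where it stands at the array floors of 4.13, 4.51 and 4.18, and it read 8.56 on Control 4 and 12.0 on Control 5. In DEX it read 7.27, 13.8, 11.7, 13.7 and 12.99. All 5 DEX arrays lay above the 3 Control arrays at the floor, but Control 5 lay above DEX 1 and DEX 3. The log2 difference was 0.94 ± 0.31 (SE), a fold of 1.92 with an interval from 1.21 to 3.05 (limma, unadjusted p = 0.00961, adjusted p = 0.692). It was 0.19 over the arrays with detection and -0.19 within slide 2, against Control 5, and the signal exceeded the brightest negative control spot on 2 of 10 arrays. It was also 1.46 when undetected signals above 0 were kept in place of the floor and 0.096 without background correction, and over the alternatives its adjusted p ran from 0.127 to 0.994. On DEX 4 and DEX 5 the signal of miR-299a-3p lay below the median of the spots without a probe, which was 17.6 and 16.7. The part of these bright spots in its difference was not tested.

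miR-337-3p, from the Meg3 side, was detected on Control 3 alone among the Control arrays, at 4.47, and stands at floors of 3.64 to 4.51 on the others. In DEX it read 8.32, 4.44, 3.78, 8.43 and 8.02. The value on DEX 3 equals the floor of that array, and with the detection limit of 3 SD miR-337-3p was not tested. DEX 1, DEX 4 and DEX 5 lay above every Control value, and DEX 2 and DEX 3 lay among them. The log2 difference was 0.57 ± 0.23 (SE) (limma, unadjusted p = 0.0289, adjusted p = 0.906), 0.31 without slide 3 and 0.28 within slide 2. With undetected signals above 0 kept it was 1.38, and without background correction it was 0.051. No array exceeded its brightest negative control spot. On DEX 4 and DEX 5, but not on DEX 1, spots without a probe were also bright, and their part in this difference was not tested. The other arm, miR-337-5p, was detected on all arrays with a log2 difference of -0.07.

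miR-540-5p read 17.6, 17.5, 13.98, 12.6 and 26.8 in Control and 22.3, 20.4, 19.1, 22.7 and 23.1 in DEX. Each DEX value lay above Control 1 to Control 4 of slide 1 and below Control 5 of slide 2. The log2 difference was 0.33 over all arrays and -0.38 within slide 2 (limma over all arrays, adjusted p = 0.906).

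Lower values in DEX with the next smallest p were found for miR-494-5p and miR-770-3p. miR-494-5p read 22.6, 16.8, 22.3, 15.9 and 14.2 in Control and 16.5, 18.5, 17.4, 12.9 and 10.8 in DEX, with the lowest values on DEX 4 and DEX 5 of slide 3. Its log2 difference was -0.28 over all arrays, -0.05 without slide 3 and 0.30 within slide 2. miR-770-3p read 33.3, 30.7, 30.2, 24.7 and 28.3 in Control and 31.6, 22.8, 21.2, 23.6 and 28.5 in DEX, with overlap of the groups. Its log2 difference was -0.21 over all arrays and -0.19 within slide 2.

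Other members with known roles also overlapped between the groups. miR-127-3p, whose precursor lies antisense to Rtl1 and which directs cleavage of its mRNA, was detected on 3 Control and 3 DEX arrays, at 5.203 to 9.09 where detected. miR-433-5p, from the same antisense RNA, ranged from 19.6 to 37.9 in Control and from 30.5 to 36.7 in DEX, with a log2 difference of 0.10. miR-376b-3p, the only miR-376 arm detected on all arrays, ranged from 15.1 to 30.8 and from 13.1 to 25.1, with -0.22. miR-329-3p ranged from 6.71 to 19.8 and from 7.35 to 13.3, with -0.33. None of these differences passed the test.

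Where both arms were tested, in 10 hairpins, the arms differed between the groups in the same direction in 4. The arms of miR-770 had the opposite sign (0.13 and -0.21) although they rose and fell together across the arrays within groups (r = 0.76), and the arms of miR-540 had the same sign (0.33 and 0.11, r = 0.66). For the other 5 hairpins with both arms on all arrays, r lay between -0.55 and -0.22. These correlations rest on 10 arrays each.

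Covariation was examined because the members share long host transcripts. Across 10 arrays, with group means removed, the 528 pairs among the 33 members detected on all arrays had a median correlation of 0.085, and all pairs of the 405 miRNAs detected on all arrays had 0.285 (Spearman 0.079 and 0.273). Without one array at a time the members' median stayed between 0.0541 and 0.120, and without the 2 arrays farthest in the members' mean level it was 0.080. The gap to all miRNAs depended on how arrays were scaled. With the median of the miRNAs detected on every array as the reference the medians were 0.006 and 0.036, with spike controls 0.352 and 0.379, and without scaling 0.764 and 0.806. The points share chips, slides and the scaling factor of each array, and these values are descriptions.

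**Figure D5:**
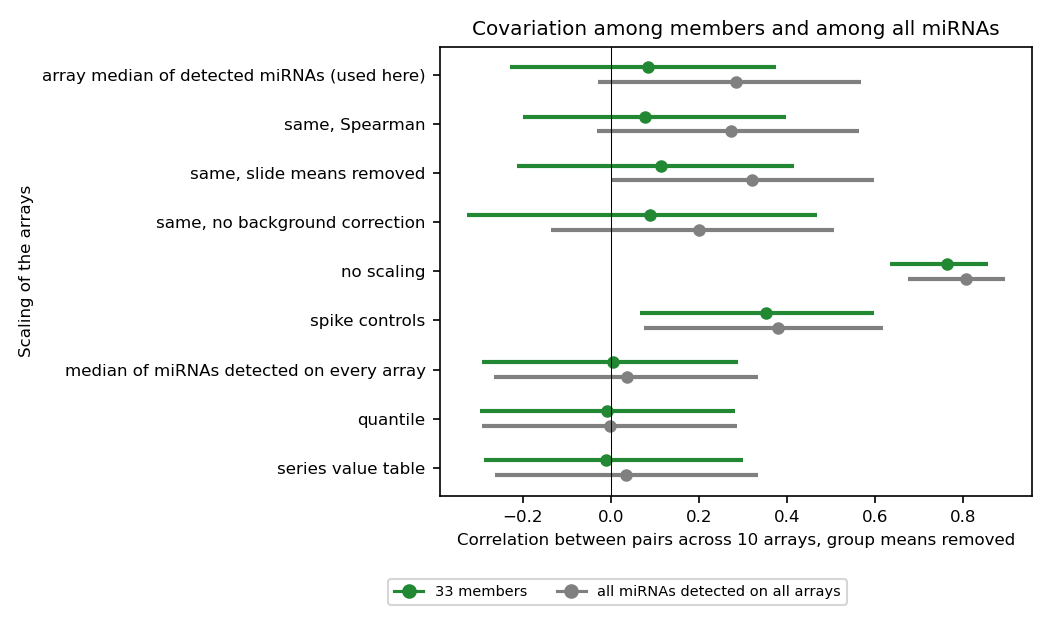
Median (circle) and middle range (line, 25% to 75%) of the pairwise correlations across 10 arrays among the 33 members detected on all arrays (green) and among all miRNAs detected on all arrays (grey), under 9 ways of scaling or correlating, with group means removed in all rows but the row with slide means removed. With the scaling used here the medians were 0.085 and 0.285, and under quantile normalization both lay at 0.

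The mean log2 signal of the 33 members had a Control mean of 4.76 ± 0.10 and a DEX mean of 4.75 ± 0.11 (SD, n = 5 arrays per group). It followed the mean of the other miRNAs detected on all arrays (r = 0.97, rho = 0.88 over 10 arrays). The correlation of single members with the mean of the other members ran from -0.48 for miR-134-3p to 0.83 for miR-409b, with a median of 0.34. The 5 miRNAs outside the list of members most like the members' mean, among 372 compared over 10 arrays, were miR-378a-3p (r = 0.95), miR-423-3p (0.95), miR-378a-5p (0.94), miR-28-5p (0.93) and miR-22-3p (0.93). Such likeness was common, since 87 of the 372 had r above 0.8 and their median r was 0.60. All these r come from the scaling used here, on which the pairwise correlations depended.

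Another 14 arms of the region were on the chip but outside the list of member numbers. Of these, 9 were tested, with 3 above and 6 below 0, log2 differences from -0.51 to 0.29, and 0 at an unadjusted p under 0.05. miR-1188-3p had the brightest probe of these, with group means of 542 ± 65.0 for Control and 542 ± 46.3 for DEX (SD, n = 5 per group). miR-1247-3p, which lies at the Dio3 end on the minus strand, read 82.0 ± 11.4 and 73.9 ± 8.67 (SD, n = 5 each). miR-679 and miR-3072 were detected on all arrays, and their positions were not used here.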

How the data were processed

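The authors labelled left ventricular RNA with Cy5 and hybridized each sample to a Toray 3D-Gene rat miRNA chip. The labels name an RNeasy kit and the methods a miRNeasy kit for extraction. The deposited scanner files hold linear median spot intensity with no background removed. The deposited series table holds the authors' score, the intensity over blank scaled to a median of 25 and rounded, and it was used for detection and as an alternative. Scanner software version and miRBase release were not given in the sources used here.

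Here, the mean of 1664 blank spots (trimmed by 5% at each end) was subtracted, arrays were scaled to a median of 25 over their own detected miRNAs, and an undetected miRNA took the floor of its array (3.64 to 5.09). Log2 was taken of these values, made from the deposited intensity. The 503 miRNAs detected on at least 5 of 10 arrays were tested with limma 3.58.1 (R 4.3.3; two-sided, Benjamini-Hochberg adjustment, threshold 0.05), without covariates. With group and slide entangled and undetected values at a floor, the share of true changes that the comparison can recover was not tested. Per the labels there were 5 arrays per group, whose number limits the precision. Plots were made in Python 3.11.15 (matplotlib 3.10.9).

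Members, lists and tests were chosen with earlier results of these data known. Named members were the 8 brightest among those tested, and, in either direction, the 3 whose unadjusted p was smallest, with arm pairs and the 5 most alike miRNAs. Of 761 probes, 685 matched a RefSeq sequence. Members shown for their sequence, detection or known role were chosen after their values were seen. Alternatives covered background correction, scaling, filter, floor, detection limit, linear model, slide, replicate number and arrays left out. The limit of the brightest negative control spot and the values within slide 2 were added after seeing the data. Same-numbered arrays of the groups did not deviate together (correlations -0.08 to 0.11), so numbers were not taken as pairs. No unmapped column was present.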

Additional observations from a re-analysis of the deposited data

Results flagged for a closer look

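In groups of 5 arrays, 5 of 91 member groups held a single array far from the others, and chance gives about 4.55 (1 in 20). That rate takes no account of values set to the floor, which the groups of miR-381-5p, miR-541-5p and miR-539-5p below contain. The 91 groups leave out groups of many untested members, so nothing is drawn from the closeness of 5 to 4.55. Outside the 5, miR-493-3p read 6.53 on Control 4 beside 4.22 to 4.51, and miR-376a-5p read 10.6 on DEX 1 beside 3.77 to 5.09. miR-370-3p was low on DEX 4, at 111 beside 128 to 130 on the other DEX arrays. miR-377-5p was high on DEX 1, at 40.1 beside 19.6 to 25.02. miR-381-5p was high on DEX 2, at 9.46 beside 3.78 to 5.11. miR-541-5p was high on Control 5, at 70.5 beside 3.64 to 4.51, and miR-539-5p was high on the same array, at 24.1 beside 3.64 to 5.92. The last pair are neighbouring spots on the chip. The adjoining spot of miR-33-3p read 19.99 on Control 5 and 1.05 to 8.43 on the other arrays, and that of miR-203a-5p read 7.16 and -3.31 to 3.69, whereas those of miR-1306-5p, miR-3594-5p, miR-3593-3p and miR-429 lay within the range of the other arrays. The part of this area of the chip in the values of miR-541-5p and miR-539-5p was not tested.

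Probe-free spots, used in no comparison, stood out on both arrays of slide 3. Their median was 17.6 on DEX 4 and 16.7 on DEX 5, beside 3.22 to 5.29 on the Control arrays.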

How the results depend on the processing

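No member and no other miRNA passed the adjusted threshold under any of the 30 alternatives fitted, and the smallest adjusted p of a member was 0.127. The number of members at an unadjusted p under 0.05, 2 as reported, was 4 with scaling by the miRNAs detected on every array, with spike controls and with the series table. It was 3 with quantile normalization and with the detection limit of 3 SD. It was 1 without scaling, with trend and robust and with the methods' t-test, and 0 with the filter on all 10 arrays, with slide as a fixed term and without slide 3. Leaving out 1 array gave 1 (Control 4 or DEX 4) to 4 (Control 5). Over all tested miRNAs the same count, 15 as reported, also moved and ran from 7 to 36 over the alternatives. The members' median log2 difference became -0.18 without scaling (all miRNAs -0.16) and -0.16 with slide as a fixed term or within slide 2. The difference in members detected, 1.0 more in DEX, became -3.8 above the brightest negative control spot. There the number over all miRNAs ran from 302 to 402 per Control array and from 291 to 368 per DEX array. The median pairwise correlation became 0.764 without scaling.

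The number of an array did not pair the groups, and with the replicate block 2 members were at an unadjusted p under 0.05 with 0 adjusted calls. Only 1 array correlated best with its own number.

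Of the 14 named members, miR-337-3p, miR-134-5p and miR-770-3p kept their sign under every alternative that tested them. The others changed sign as follows, in log2. With slide fixed and within slide 2 alike, miR-487b-3p gave -0.0009, miR-134-3p -0.13, miR-540-3p -0.15, miR-666-5p 0.28, miR-299a-3p -0.19, miR-540-5p -0.38 and miR-494-5p 0.30. Without scaling, miR-487b-3p gave -0.12, miR-667-3p -0.11, miR-134-3p -0.12, miR-770-5p -0.075 and miR-540-3p -0.096. With normexp, miR-370-3p gave 0.083, miR-667-3p -0.17, miR-134-3p -0.20 and miR-540-5p -0.0099. miR-487b-3p gave -0.0073 without background correction, -0.0036 with quantile normalization, -0.0041 with array weights and -0.037 without slide 3, and miR-667-3p gave -0.0051 with quantile normalization. miR-494-3p gave 0.014 with scaling by the miRNAs detected on every array, 0.053 with spike controls, 0.012 with the series table and 0.010 with array weights, and miR-370-3p gave 0.0003 with spike controls. Leaving out 1 array moved miR-494-3p between -0.052 and 0.058 (positive without Control 4, Control 5, DEX 1 or DEX 4) and miR-666-5p between -0.29 and 0.0019 (positive without DEX 4). The cause of these changes was not tested, and signals near those of the negative control spots limit the dim members.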
